A study of Mus musculus with 6 samples.

Results

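The let-7 genes of the a, d and f type and mir-98 were examined in small RNA sequencing libraries of mouse muscle cell-derived vesicles, osteoblasts and bone marrow cells. They were taken by their entry names and comprise 6 of the 1006 precursor entries of the deposited table: let-7a-1, let-7a-2, let-7d, let-7f-1, let-7f-2 and mir-98. Of the 6 libraries, 2 were of Myo-EVs, the vesicles that C2C12 cells (an established mouse myoblast line) release into medium with EV-depleted serum. A further 2 were of FFSS-Myo-EVs, from C2C12 cells exposed to fluid flow shear stress (FFSS) by shaking. OB (primary osteoblasts) and BM (primary bone marrow cells) had 1 library each, without stress, from mice of mixed strain, of which C57BL/6J made up 81.25% and 129/SvJ 18.75%. The labels give that strain also for the C2C12 libraries, and give an age of 8 to 10 weeks for OB and BM, whereas the methods describe osteoblasts from neonatal calvariae. The culture text of the labels names vitamin D and dexamethasone and not FFSS, and the FFSS group rests on titles and the stress label.

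The let-7 miRNAs are a conserved family that represses growth-promoting targets such as Lin28, Hmga2 and Ras genes and rises as cells differentiate. The LIN28 proteins block the maturation of many let-7 precursors, so that the mature level need not follow transcription. A miRNA recognizes its targets mainly through the seed, bases 2 to 8, and family members with the same seed are expected to share many targets. In bone and muscle the family is known as an abundant group of miRNAs, and let-7 is also a common cargo of extracellular vesicles.

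The mature 5p sequences are shown because the 4 types differ by few bases, which bears on how reads are assigned (RefSeq, GRCm38.p6; seed in capitals, 5′ to 3′).
let-7a-5p: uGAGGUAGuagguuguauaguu
let-7d-5p: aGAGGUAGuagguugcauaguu
let-7f-5p: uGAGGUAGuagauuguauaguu
miR-98-5p: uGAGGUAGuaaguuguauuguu
All 4 have 22 bases and the seed GAGGUAG, which 11 of 1679 mature mouse names in the RefSeq table carry. Counted from 1 at the 5′ end and with the let-7a base first, let-7f differs from let-7a by G12A alone. The differences of let-7d are U1A and U16C, and those of miR-98 are G11A and A19U. Of the other let-7 types, let-7c and let-7e also differ from let-7a by 1 base. The number of mismatches allowed in the authors' matching is not given in the sources used here, and reads could thus be split between let-7a and let-7f.

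The hairpins are shown because let-7a and let-7f each have 2 genomic copies with the same 5p arm (RefSeq, GRCm38.p6; 5p and 3p arms in capitals).
let-7a-1: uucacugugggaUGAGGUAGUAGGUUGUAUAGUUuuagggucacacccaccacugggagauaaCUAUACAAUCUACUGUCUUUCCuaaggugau
let-7a-2: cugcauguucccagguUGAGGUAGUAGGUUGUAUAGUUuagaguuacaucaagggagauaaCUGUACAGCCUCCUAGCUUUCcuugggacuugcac
let-7f-1: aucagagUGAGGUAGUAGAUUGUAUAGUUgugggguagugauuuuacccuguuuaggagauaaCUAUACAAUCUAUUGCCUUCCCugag
let-7f-2: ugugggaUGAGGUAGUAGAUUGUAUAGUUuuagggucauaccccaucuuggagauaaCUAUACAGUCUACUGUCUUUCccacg
let-7d: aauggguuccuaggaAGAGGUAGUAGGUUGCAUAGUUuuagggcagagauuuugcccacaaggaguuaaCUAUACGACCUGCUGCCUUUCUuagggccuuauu
mir-98: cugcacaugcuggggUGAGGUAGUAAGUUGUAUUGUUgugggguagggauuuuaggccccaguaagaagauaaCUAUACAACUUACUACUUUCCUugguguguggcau
The longest run shared by the let-7a hairpins was 23 bases, and that shared by the let-7f hairpins was 22 bases, in both cases over the whole 5p arm. Compared base by base over 21 bases, the 3p arms differed at 6 positions between let-7a-1 and let-7a-2 and at 4 between let-7f-1 and let-7f-2. A 5p read therefore fits both copies of a type, whereas a 3p or loop read tells them apart.

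The 6 genes lie in 3 clusters of GRCm38. On the minus strand of chromosome 13, let-7a-1 (chr13:48538179-48538272), let-7f-1 (chr13:48537829-48537917) and let-7d (chr13:48536012-48536114) lie in exons of the long noncoding RNA 6720427I07Rik, with 261 bases between let-7a-1 and let-7f-1 and 1714 between let-7f-1 and let-7d. A further miRNA gene model, Gm24111, is annotated on the opposite strand of let-7f-1. On the plus strand of chromosome X, let-7f-2 (chrX:151912346-151912428) and mir-98 (chrX:151913214-151913321) lie 785 bases apart in an intron of Huwe1, which encodes a ubiquitin ligase. On the plus strand of chromosome 9, let-7a-2 (chr9:41536716-41536811) lies in introns of the noncoding genes 3110039I08Rik and Gm49317, 5211 bases after mir-100 and 45114 bases before mir-125b-1.

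**Figure D1:**
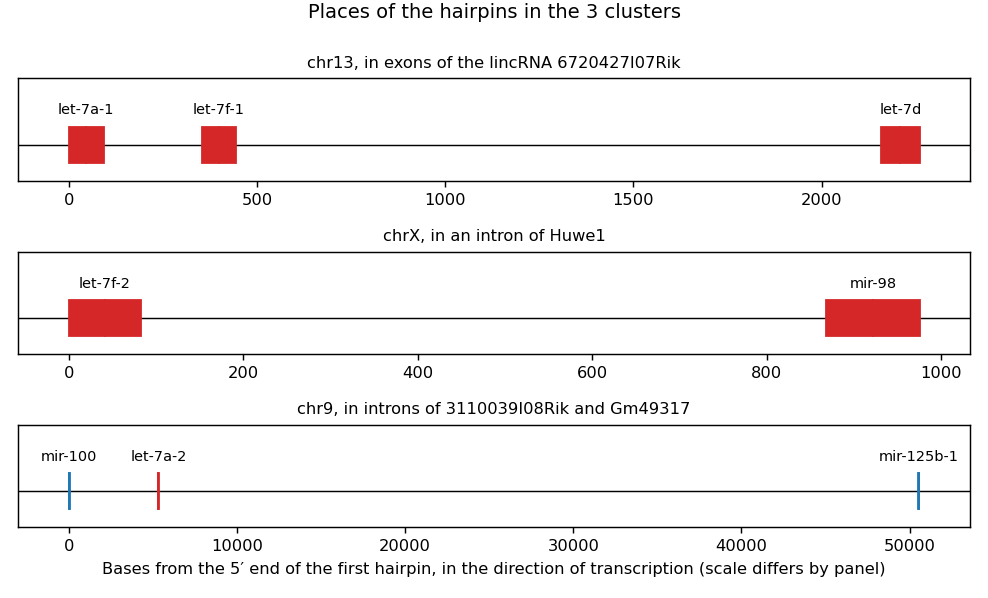
Map of the hairpins of each cluster, with bases from the first hairpin on the x axis and another scale in each panel. Red boxes mark the let-7a, let-7d, let-7f and mir-98 hairpins and blue boxes mark mir-100 and mir-125b-1. The chromosome X pair has 785 bases between its hairpins, and let-7a-2 has 45114 bases between it and mir-125b-1.

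The levels below are the authors' normalized expression values, which are the read count of an entry multiplied by 1 constant per library. The total count was 5181296 in OB, 6092460 in BM and 2414132 to 3029524 in the EV libraries. Each library of a cell type stands alone, so its value has no replicate error, and its 95% interval is an exact Clopper-Pearson interval of the share of counts, which covers counting error only. Nothing in the labels says that the EV replicates came from separate cultures, and p-values measure the spread between these libraries. In material of this kind, a change in the vesicles that carry a miRNA and a change in its amount per vesicle cannot be told apart. Labelled cell types were checked against marker lists. The 6 mesenchymal markers summed to 536435.8 in OB, 22199.3 in BM and 335111.9 to 437712.5 in EVs, the 6 listed blood cell markers to 239.8 and 20769.1, and the 6 muscle markers to 2052.9 to 2641.9 in EVs against 118.9 in OB and 71.9 in BM. The mesenchymal sum in EVs was mostly mir-143, at 274481.7 to 372549.3 against 269505.8 in OB. mir-145a was also higher in EVs than in OB, whereas mir-199a-1, mir-199a-2, mir-199b and mir-214 were lower. mir-199a-1, for instance, was at 11324.2 to 16349.7 in EVs against 87356.0 in OB. The muscle sum in EVs was nearly all mir-206, and mir-1a-1 was at 0 in the 4 EV libraries.

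let-7f was the most abundant of the 4 types in every library. The normalized expression value of let-7f-2 was 71357.3 in OB, 88759.0 in BM, 96485.9 and 80513.8 for Myo-EVs, with 147587.2 and 132609.4 for FFSS-Myo-EVs. That of let-7f-1 was 68303.4 in OB, 82729.8 in BM, 92630.2 and 77711.3 for Myo-EVs, with 141412.8 and 127125.0 for FFSS-Myo-EVs. Both copies were lowest in OB and highest in FFSS-Myo-EVs, and the BM value lay within the range of the Myo-EV libraries for both. Among the 1006 entries, let-7f-2 ranked 9 in OB, 6 in both Myo-EV libraries, and 5 in BM and both FFSS-Myo-EV libraries.

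let-7a, whose mature sequence is that of the worm gene for which the family is named, stood at a lower level. The value of let-7a-1 was 19129.4 in OB, 17039.9 in BM, 28340.1 and 20594.1 for Myo-EVs, with 29195.7 and 29827.6 for FFSS-Myo-EVs. For let-7a-2 the values were 18661.6 in OB, 16591.1 in BM, 27964.6 and 20356.9 for Myo-EVs, with 28828.1 and 29321.5 for FFSS-Myo-EVs. Both let-7a copies were lowest in BM, and the second Myo-EV library was closer to OB than to the first Myo-EV library.

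let-7d, the only type here whose 5p arm starts with A, had a value of 11901.0 in OB, 13980.4 in BM, 21502.0 and 21147.4 for Myo-EVs, with 21596.6 and 23037.4 for FFSS-Myo-EVs. Its EV libraries lay close together and all 4 were above both cells. mir-98, the let-7 relative beside let-7f-2, had a value of 3449.4 in OB, 4546.1 in BM, 6360.3 and 4497.3 for Myo-EVs, with 7061.1 and 6583.1 for FFSS-Myo-EVs. The second Myo-EV library lay within the 95% counting interval of BM, 4463 to 4630, and the other EV libraries were above both cells. mir-98 ranked between 43 and 66 among all entries, the lowest place of the 6. For each of the 6 entries the intervals of OB and BM did not overlap, as with let-7a-1, at 18929 to 19331 in OB and 16880 to 17201 in BM.

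The order of the levels was let-7f-2, let-7f-1, let-7a-1, let-7a-2, let-7d and mir-98 in 5 of the 6 libraries. In the second Myo-EV library, let-7d was above both let-7a copies. In Myo-EVs the means were 88499.8 ± 11294.0 (SD, n = 2) for let-7f-2 and 85170.8 ± 10549.3 (SD, n = 2) for let-7f-1. This difference was within the spread between libraries, although let-7f-2 was above let-7f-1 in each of them. The means of let-7a-1, let-7a-2 and let-7d were 24467.1 ± 5477.2, 24160.8 ± 5379.5 and 21324.7 ± 250.7 (SD, n = 2). They did not separate by that spread either, although let-7a-1 was above let-7a-2 in each library. The gaps from let-7f to let-7a and from let-7d to mir-98, which had a mean of 5428.8 ± 1317.3 (SD, n = 2), were larger than these spreads. In FFSS-Myo-EVs, let-7a-2 at 29074.8 ± 348.9 (SD, n = 2) also stood apart from let-7d at 22317.0 ± 1018.8 (SD, n = 2).

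**Figure D2:**
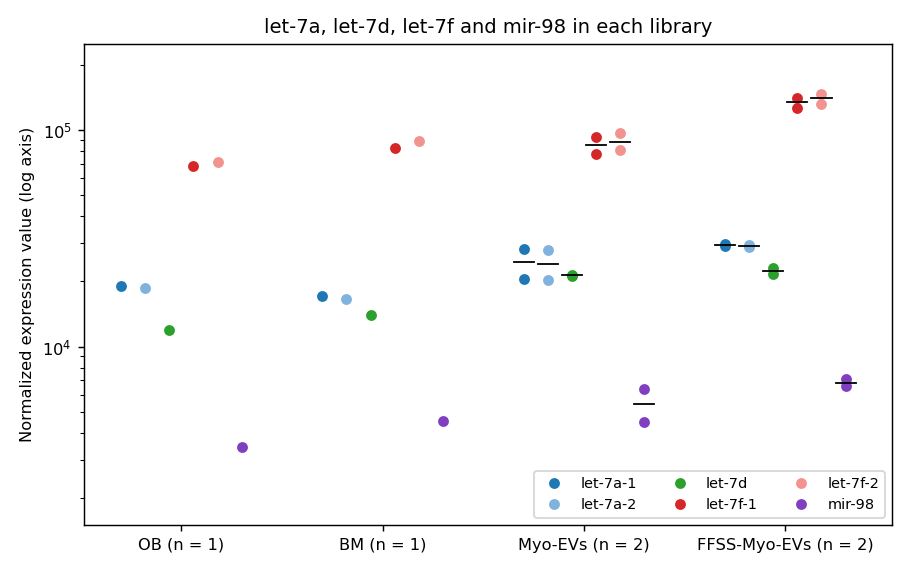
Normalized expression values (log axis) of the 6 entries in each of the 6 libraries, by group. Points are libraries and black bars are means of 2 libraries. The let-7f entries are highest in every group, from 68303.4 to 147587.2, and mir-98 is lowest, from 3449.4 to 7061.1.

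The 6 entries together held 6.74% of the counts in OB (95% interval 6.72 to 6.76), 9.24% in BM (9.22 to 9.27), 9.48% and 7.78% for Myo-EVs, with 12.4% and 11.8% for FFSS-Myo-EVs. With 1 copy each of let-7a and let-7f, since 5p reads may be entered for both copies, the shares ranged from 3.70% in OB to 6.81% in the first FFSS-Myo-EV library. The mean share was 8.63% ± 1.21 (SD, n = 2) in Myo-EVs and 12.1% ± 0.425 (SD, n = 2) in FFSS-Myo-EVs. The groups did not overlap, and a two-sided exact permutation test gave p = 0.333, the smallest that 2 against 2 libraries allow.

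The copies of a type had nearly the same counts in every library. The count of let-7a-1 exceeded that of let-7a-2 in 6 of 6 libraries, by 1.15% to 2.63% of the higher count, and the gap was 2.45% in OB, 2.63% in BM and 1.15% to 1.70% in EVs. The mean log2 ratio was 0.026 ± 0.0094 (SD, n = 6; adjusted p = 0.0313 in a two-sided exact sign-flip permutation test, adjusted over 2 pairs). For let-7f the order of the copies was the other way, with let-7f-2 above let-7f-1 in 6 of 6 libraries and gaps of 3.48% to 6.79%. The mean log2 ratio of let-7f-1 to let-7f-2 was -0.066 ± 0.018 (SD, n = 6; adjusted p = 0.0313 in the same exact permutation test). The value 0.0313 is the smallest that 6 libraries allow. These 6 libraries pool OB, BM and both EV groups, so the SD and p do not measure replicate spread within any single material. The gap between the let-7f copies was widest in BM, with counts of 208292 for let-7f-1 and 223472 for let-7f-2, and lay between 3.48% and 4.28% in the other libraries.

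Whether the copies are transcribed alike cannot be read from these counts, because the 5p arm is shared and the 5p and 3p forms are not listed apart. How the authors' matching treats a read that fits several hairpins is not given in the sources used here. Since the copies of a type gave nearly the same value, counts over the 6 entries below hold let-7a and let-7f under both names and are not counts of separate measurements.

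The comparison of FFSS-Myo-EVs with Myo-EVs asks which miRNAs the vesicles carry in greater or smaller amount after shear stress of the cells. let-7f was higher in FFSS-Myo-EVs, and the differences of let-7a, let-7d and mir-98 did not pass the test. The ratio of the mean normalized expression values was 1.58 for both let-7f-1 and let-7f-2. It was 1.21 for let-7a-1, 1.20 for let-7a-2, 1.05 for let-7d and 1.26 for mir-98. On the authors' values, the lower FFSS-Myo-EV library exceeded the higher Myo-EV library in 6 of 6 entries, against 36.7% of the 354 entries tested. On counts scaled by TMM, which sets the bulk of entries equal between libraries, this held for 2 of 6, the let-7f entries, against 26.0% of all tested, and 0 of 6 lay below in the same sense, against 32.5%. The TMM-scaled CPM, or count by library size, of let-7f-2 was 35753 and 27524 in Myo-EVs, and FFSS-Myo-EVs had 49963 and 41794. let-7a-1 had 10501 and 7040 beside 9884 and 9401, and mir-98 had 2357 and 1537 beside 2390 and 2075. In both, the first Myo-EV library reached the FFSS-Myo-EV libraries and the second lay below them. let-7d, at 7968 and 7229 beside 7311 and 7261, had its FFSS-Myo-EV libraries between the Myo-EV libraries. The authors' scaling raised the median log2 fold change of all tested entries by 0.12 over that with TMM.

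The test was edgeR's quasi-likelihood test, run with TMM factors on counts from the 4 EV libraries. It covered the entries whose normalized expression values averaged 10 or more, with Benjamini-Hochberg adjustment over all 354. SE stands for a standard error derived from that test, the absolute log2 fold change divided by the square root of its F statistic. All 6 entries passed the filter. At an adjusted p below 0.05, 2 of the 6 entries were higher, against 12.1% of all tested entries, and 0 were lower, against 18.4%. With 1 entry per mature type, 1 of the 4 types was higher, against 13.8% of 318 entries, and 0 were lower, against 16.0%. By DESeq2, 0 of the 6 were lower, against 46 of 354 entries. By limma (pseudocount 1), 0 of the 6 were lower, against 37 of 354 entries. By unadjusted p below 0.05 in edgeR, 0 of the 6 were lower, where 138 of the 354 entries passed in either direction. The log2 fold change of let-7f-2 was 0.54 (SE 0.21 and edgeR adjusted p = 0.0419). That of let-7f-1, which has the same 5p sequence, was 0.53 (SE 0.21 and edgeR adjusted p = 0.0424). Leaving out the first FFSS-Myo-EV library gave 0.40 for let-7f-2 (adjusted p = 0.574 in edgeR), and leaving out the second gave 0.69 (adjusted p = 0.152), so that the call needed both, while over all alternatives and omissions the adjusted p ranged from 2.41e-05 to 0.574.

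The log2 fold changes of the other types were smaller. That of let-7a-1 was 0.14 (SE 0.17 and edgeR adjusted p = 0.626) and that of let-7a-2 was 0.13 (SE 0.17). Without the first Myo-EV library let-7a-1 was at 0.45, with an adjusted p of 0.00481 in edgeR, and without the second it was at -0.025, so that the Myo-EV libraries decided the value. For mir-98 the log2 fold change was 0.20 (SE 0.14 and edgeR adjusted p = 0.302), with 0.54 without the first Myo-EV library (adjusted p = 2.01e-04) and 0.018 without the second. let-7d was at -0.061 (SE 0.16 and edgeR adjusted p = 0.839), and its sign was negative in 5 and positive in 5 of 10 other analyses of the 4 libraries. The median log2 fold change was 0.17 over the 6 entries and -0.025 over all tested entries.

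Of the other 8 let-7 genes, 0 passed the test in either direction in edgeR, and 0 had an unadjusted p below 0.05. With DESeq2 0 were called and 1 had an unadjusted p below 0.05, and with the authors' scaling and with limma at a pseudocount of 1, 1 was called higher. The gene called there was let-7g, at 0.44 with the authors' scaling (adjusted p = 0.0389 in edgeR). In the TMM analysis their median log2 fold change was 0.0015. The nearest to let-7f was let-7g, with a log2 fold change of 0.31 (SE 0.23 and edgeR adjusted p = 0.325), and let-7e was at the other end with -0.25 (SE 0.17, adjusted p = 0.309). All 8 were tested, and across all 354 entries 138 had an unadjusted p below 0.05. Without the first Myo-EV library, let-7g was called higher at 0.52 (adjusted p = 0.00465 in edgeR) and let-7e stood at -0.042. Without the second, let-7e was called lower at -0.33 (adjusted p = 0.00668 in edgeR). On TMM-scaled counts both FFSS-Myo-EV libraries of let-7g exceeded both Myo-EV libraries, as with let-7f. For let-7e and let-7k they lay below both Myo-EV libraries, and the rest of the 8 genes overlapped. let-7e had 15061 and 11496 in Myo-EVs beside 11028 and 11300 in FFSS-Myo-EVs. For let-7k the values were 93.0 and 81.5 beside 75.5 and 79.2. Among all 354 entries, 26.0% lay above in this sense and 32.5% below. The let-7f effect was not tested against that of let-7g.

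Serum and blood cell miRNAs were looked at beside these values because the vesicles were collected from medium with serum. The 3 listed serum or liver markers summed to 85.3 and 119.8 for Myo-EVs, with 148.4 and 124.0 for FFSS-Myo-EVs. These sums were mostly mir-486a, at 76.3 and 110.2 beside 104.6 and 90.8. mir-451a, a miRNA of red blood cells that is on both lists, was at 3.0 and 4.8 in Myo-EVs, and FFSS-Myo-EVs had 25.9 and 17.7, a log2 fold change of 2.36 (SE 0.52 and edgeR adjusted p = 6.79e-05). mir-122, a liver miRNA, was at 6.0 and 4.8 for Myo-EVs, with 17.9 and 15.5 for FFSS-Myo-EVs, a log2 fold change of 1.47 (SE 0.50 and edgeR adjusted p = 0.0132). The 6 blood cell markers summed to 91.3 and 121.0 in Myo-EVs and to 155.5 and 134.0 in FFSS-Myo-EVs, with 2 of the 6 at 0 in the second Myo-EV library. These levels are far below that of let-7f, and their part in the let-7f difference was not tested.

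**Figure D3:**
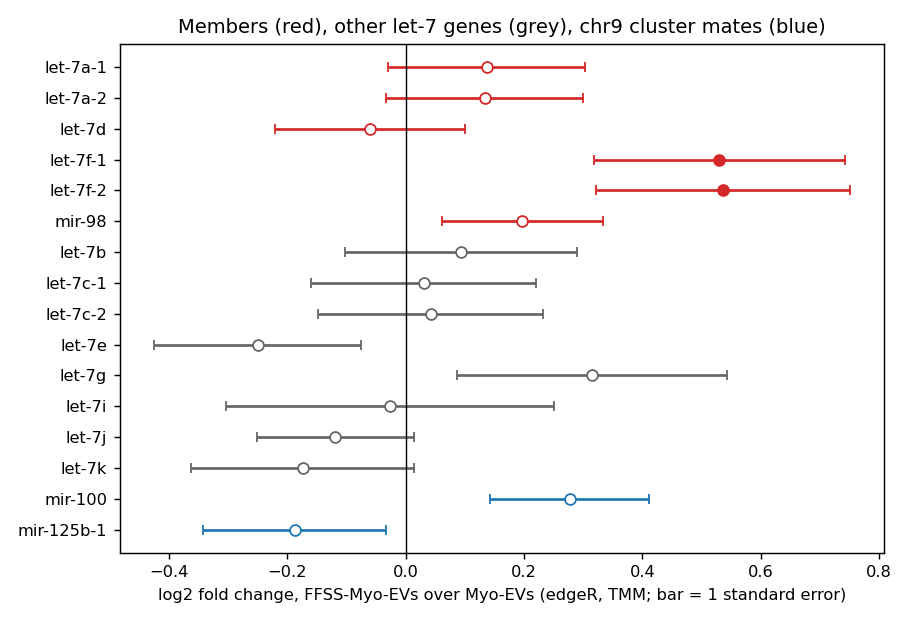
log2 fold change of FFSS-Myo-EVs over Myo-EVs (edgeR with TMM) on the x axis, with bars of 1 standard error derived from the F statistic. Shown are the 6 entries (red), the other 8 let-7 genes (grey) and mir-100 and mir-125b-1 (blue). Filled points have an adjusted p below 0.05. let-7f-1 and let-7f-2, at 0.53 and 0.54, are the filled points.

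Ratios of cluster mates within a library are free of scaling. On chromosome 13, the count of let-7f-1 was 3.57 times that of let-7a-1 in OB, 4.86 times in BM, 3.27 and 3.77 times for Myo-EVs, with 4.84 and 4.26 times for FFSS-Myo-EVs. The EV groups did not overlap, with FFSS-Myo-EVs higher by 0.37 on the log2 scale, against SDs of 0.15 in Myo-EVs and 0.13 in FFSS-Myo-EVs. The count of let-7f-1 over that of let-7d was 4.31 and 3.67 for Myo-EVs, with 6.55 and 5.52 for FFSS-Myo-EVs, a log2 difference of 0.60 that also left the groups apart. In OB and BM this ratio was 5.74 and 5.92.

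In the third pair of the cluster the EV groups overlapped. The ratio of let-7d to let-7a-1 was 0.622 in OB, 0.820 in BM, 0.759 and 1.03 for Myo-EVs, with 0.740 and 0.772 for FFSS-Myo-EVs. The Myo-EV libraries lay further from each other than OB from BM, with a log2 SD of 0.31.

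On chromosome X, the count of let-7f-2 was 15.2 and 17.9 times that of mir-98 for Myo-EVs, with 20.9 and 20.1 times for FFSS-Myo-EVs, a log2 difference of 0.32 with the groups apart. It was 20.7 times in OB and 19.5 times in BM, so that the FFSS-Myo-EV libraries were nearer to the cells than the Myo-EV libraries were. The chromosome X and chromosome 13 ratios are not independent, since the let-7f copies have the same 5p sequence.

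The chromosome 9 cluster joins let-7a-2 with mir-100 and mir-125b-1, which belong to the mir-99/100 and mir-125 families and are known to be processed from a common transcript with let-7a-2. The ratio of let-7a-2 to mir-100 was 0.328 in OB and 10.4 in BM, and 6.05, 3.99, 4.46 and 4.62 in the EV libraries in the order Myo-EVs and FFSS-Myo-EVs. To mir-125b-1 it was 0.689 in OB, 7.92 in BM, 1.58 and 1.28 for Myo-EVs, with 1.80 and 1.81 for FFSS-Myo-EVs. The let-7a-2 value thus differed little between OB and BM, at 18661.6 and 16591.1, whereas mir-100 stood at 56851.9 and 1597.9 and mir-125b-1 at 27100.6 and 2094.3. With 1 library of each cell, no spread was there to set against these differences. The let-7a-2 entry can hold reads of let-7a-1, and its value is not a measure of the chromosome 9 transcript alone. The same may hold for mir-125b-1, since the entries also include mir-125b-2. In edgeR the log2 fold change of FFSS-Myo-EVs over Myo-EVs was -0.19 for mir-125b-1 and -0.20 for mir-125b-2. Between the EV groups, the log2 ratio of let-7a-2 to mir-125b-1 was higher in FFSS-Myo-EVs by 0.34 with the groups apart, and that to mir-100 overlapped. For each pair with groups apart the exact permutation p was 0.333 (adjusted p = 0.5 over 6 pairs), the smallest this test allows with 2 against 2 libraries, and 3 of these pairs rest on the same let-7f measurement.

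**Figure D4:**
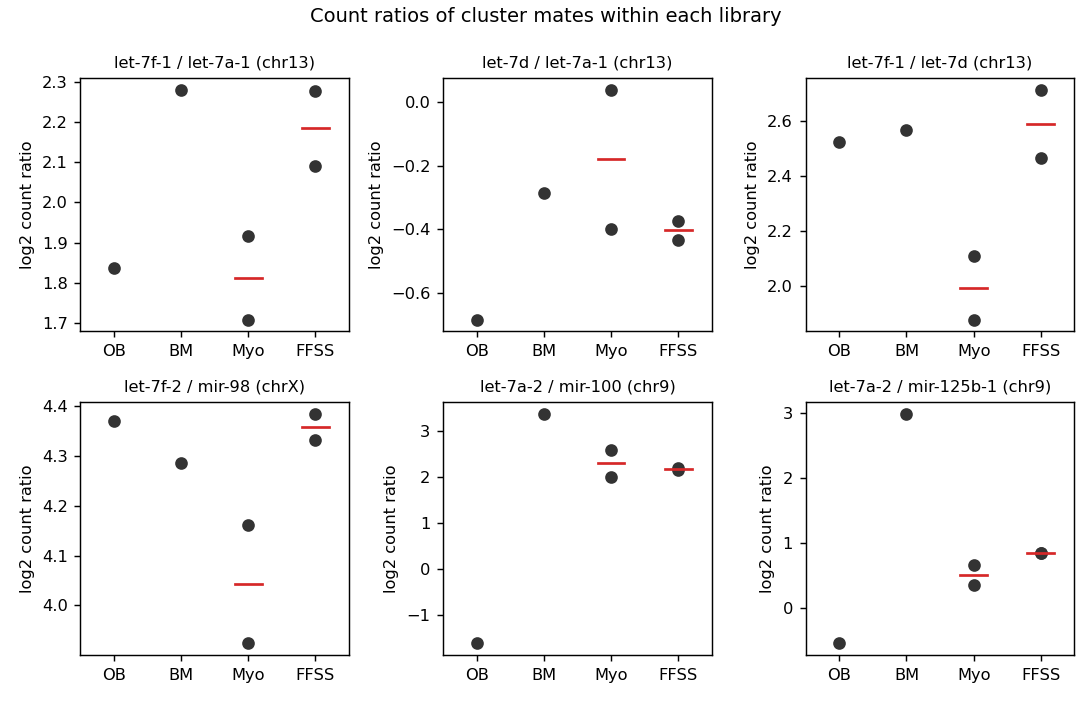
log2 count ratios of cluster mates within each library, by group (Myo and FFSS stand for the EV groups). Points are libraries and red bars are means of 2 libraries, and the y axes differ between panels. let-7f-1 over let-7a-1, let-7f-1 over let-7d and let-7f-2 over mir-98 are higher in both FFSS-Myo-EV libraries than in both Myo-EV libraries.

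Within the counts of all 14 let-7 genes, mir-98 included, let-7f held 26.4% in OB, 34.6% in BM, 17.7% and 16.3% for Myo-EVs, with 22.6% and 21.9% for FFSS-Myo-EVs. The mean was 17.0% ± 0.988 (SD, n = 2) in Myo-EVs and 22.2% ± 0.476 (SD, n = 2) in FFSS-Myo-EVs, a difference of 5.27 percentage points (p = 0.333, exact permutation test). With 1 copy per type the difference was 3.59 points. The share of let-7a was 4.74% ± 0.742 (SD, n = 2) and 4.76% ± 0.322 (SD, n = 2) in the same groups, and that of mir-98 was 0.528% ± 0.0931 (SD, n = 2) and 0.553% ± 0.0025 (SD, n = 2). For let-7d it was 2.09% ± 0.117 (SD, n = 2) in Myo-EVs and 1.81% ± 0.181 (SD, n = 2) in FFSS-Myo-EVs. The 4 types together took 36.4% in OB and 45.2% in BM, against 23.1% to 29.4% in the EV libraries, where let-7b took 5.85% to 6.71% (3.11% in OB and 0.687% in BM) and let-7e 2.54% to 3.80% (1.60% and 0.202%). let-7i alone held 30.3% in BM and 34.8% to 43.8% in the other libraries.

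**Figure D5:**
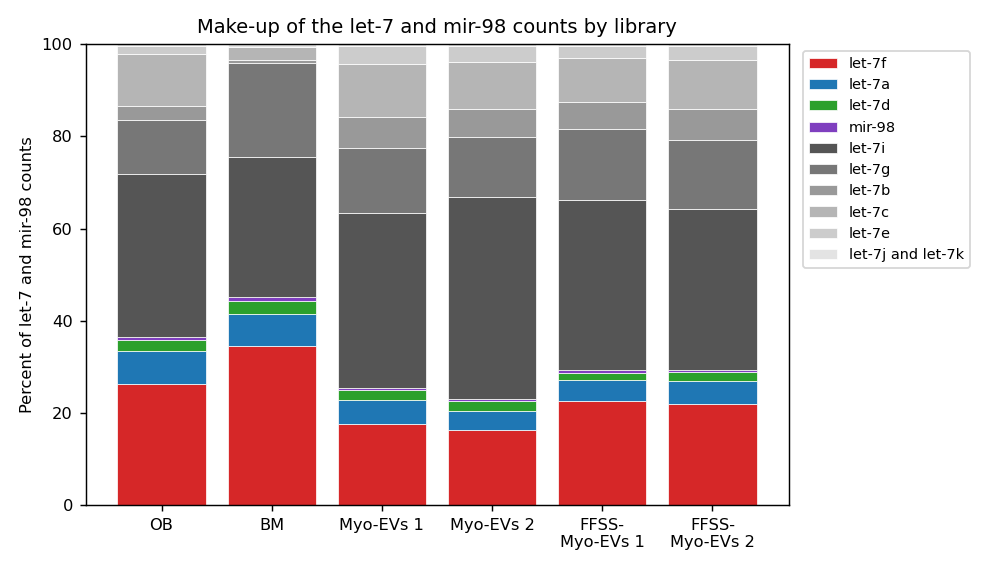
Percent of all let-7 and mir-98 counts held by each type, stacked to 100 for each of the 6 libraries. let-7f (red) held 34.6% in BM and 16.3% in the second Myo-EV library, and other let-7 genes (greys) held the most in Myo-EVs.

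The comparison of vesicles with OB and BM asks which miRNAs the vesicles hold above the level of the bone cells that could receive them. On the authors' values, each of the 6 entries was within 2-fold of both cells. FFSS-Myo-EVs stood at 1.54 (let-7a-1) to 1.98 (mir-98) times OB and at 1.50 (mir-98) to 1.75 (let-7a-2) times BM. Myo-EVs stood at 1.24 (let-7f-2) to 1.79 (let-7d) times OB and at 0.997 (let-7f-2) to 1.53 (let-7d) times BM. Past 2-fold upward were 0 of the 6 entries in each comparison, against 35.4% of 443 entries for FFSS-Myo-EVs over OB, 38.8% for FFSS-Myo-EVs over BM, 36.1% for Myo-EVs over OB and 37.0% for Myo-EVs over BM. Downward there were 0 as well, against 31.8%, 33.0%, 37.9% and 37.5% in the same order. With the first FFSS-Myo-EV library alone, let-7f-1, let-7f-2 and mir-98 stood at 2.05 to 2.07 times OB. The share of all entries past 2-fold was not taken for that library alone.

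The direction against BM depended on mir-21a, which took 44.9% of the counts in BM and 20.2% to 23.3% in the other libraries. When counts were scaled to the total without mir-21a, which moves every entry of a library by 1 constant, FFSS-Myo-EVs stood at 0.844 to 0.986 times BM, below it in 6 of 6 entries, against 55.3% of all entries and a median ratio of 0.567 over all. Myo-EVs then stood at 0.592 to 0.905 times BM, below it in 6 of 6, against 54.4% of all entries, and let-7f-2 moved from 0.997 to 0.592. The ratios of FFSS-Myo-EVs to OB were 1.46 to 1.87. With TMM over all 6 libraries, FFSS-Myo-EVs were at 1.11 to 1.29 times BM and 1.06 to 1.36 times OB, and Myo-EVs were below OB in 4 of the 6 entries, against 55.8% of all, and below BM in 3, against 48.5%. Of the other let-7 genes, 8 of 8 were past 2-fold higher in FFSS-Myo-EVs than in OB on the authors' values, and 4 to 7 of 8 with the 4 other scalings. Over BM it was 6 of 8 on the authors' values and 5 without mir-21a in the total.

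BM and OB were close for all 6 entries. The ratio of BM to OB was 0.891 for let-7a-1, 0.889 for let-7a-2, 1.17 for let-7d, 1.21 for let-7f-1, 1.24 for let-7f-2 and 1.32 for mir-98. Past 2-fold were 0 entries upward, against 29.6% of all, and 0 downward, against 34.1%. Without mir-21a in the total, all 6 were higher in BM and 3 of them past 2-fold, against 60.5% and 49.4% of all 443 entries, so that the share past 2-fold was that of the background. The ratio of let-7f-1 to its neighbour let-7a-1, which no scaling can move, was 3.57 in OB and 4.86 in BM.

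The entries outside the family with the most similar profile over the 4 groups were found by the root mean square difference of centred log2 values, among 239 entries averaging 100 or more. Nearest to let-7a-1 and let-7a-2 was mir-669c, with differences of 0.053 and 0.055 on the log2 scale. Next came mir-181b-1 at 0.15 for both, which was also the nearest to let-7d at 0.16. For let-7f-1 and let-7f-2 the nearest were mir-101b, at 0.22 and 0.21, and mir-93, at 0.23 and 0.22. mir-93 was nearest to mir-98 at 0.14, followed by mir-101b at 0.20. The third places were held by mir-101b for let-7a-1, mir-421 for let-7a-2, mir-93 for let-7d, mir-669c for let-7f-1, mir-3968 for let-7f-2 and mir-1981 for mir-98, at 0.21 to 0.26. mir-669c stood at only 174.8 to 300.1, far below let-7a. With 4 group means and 239 candidates, such likeness is a description of these libraries.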

How the data were processed

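Small RNA was sequenced from 2 Myo-EV, 2 FFSS-Myo-EV, 1 OB and 1 BM library. In CLC Genomics Workbench the authors grouped the reads by sequence and matched the groups to miRBase. The deposited counts are whole numbers for each precursor entry, without normalization. The normalized expression values are a signal, which the authors obtained by scaling these counts and which amounts to 1 constant per library (0.397 to 1.20). The processing notes of the submitters name mm10. The miRBase release, the mismatches allowed and the treatment of reads with several matches are not given in the sources used here.

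Groups were taken from the sample titles. The members, lists and tests were chosen with earlier results of these data known. FFSS-Myo-EVs were compared with Myo-EVs in edgeR 4.0.16 (R 4.3.3) by the quasi-likelihood test, with TMM factors and library totals over all entries. The steps were run on simulated data with 2-fold changes, which does not cover a change as small as that of let-7f. Alternatives used limma 3.58.1, DESeq2 1.42.0, other scalings and filters, the replicate number as a block, 1 entry per type and each EV library left out. Single values were tested by exact permutation (scipy 1.17.1, two-sided). For the cells, called means past 2-fold among 443 entries averaging 10 or more over all libraries, with no test. Named were the 6 entries, mir-100 and mir-125b-1, the other let-7 genes, the marker lists, mir-21a and 3 similar profiles per entry. Sequences and places came from RefSeq (GRCm38.p6), in which all 6 were found, and host genes from GENCODE M21. The count sets the precision, and each of the 6 entries had 3755 counts or more in every library. The counting intervals of the replicates overlapped for let-7d in Myo-EVs and for both let-7a entries in FFSS-Myo-EVs.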

Additional observations from a re-analysis of the deposited data

How the results depend on the processing

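let-7f-2 was called higher in 10 of 10 other analyses of the 4 EV libraries, and let-7f-1 in the 9 that included it. The log2 fold changes ran from 0.48 to 0.67 and the adjusted p-values from 6.13e-04 to 0.0452. The 2 calls became 1 with 1 entry per mature type, since only let-7f-2 was kept there (adjusted p = 0.00211 in edgeR). With limma, mir-98 was called as well, at 0.35 with a pseudocount of 1 and of 10 (adjusted p = 0.0472 and 0.0443). With each EV library left out, 0 to 5 of the 6 entries and 44 to 132 of all entries were called, against 108, the lone library being assumed to vary like the other group. Without the first and without the second FFSS-Myo-EV library 0 of the 6 were called, and without the first Myo-EV library 5. The log2 fold changes then ranged from 0.40 to 0.73 for let-7f-1, 0.40 to 0.74 for let-7f-2, -0.025 to 0.45 for let-7a-1, -0.027 to 0.45 for let-7a-2, -0.066 to 0.011 for let-7d and 0.018 to 0.54 for mir-98. Of the 354 entries, 43 were called higher and 65 lower with TMM, 54 and 39 with the authors' scaling, 49 and 46 with library totals, and 57 and 37 with limma and a pseudocount of 1.

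With the replicate number as a block (replicate block), the log2 fold change was 0.54 for let-7f-1 and for let-7f-2 (adjusted p = 0.0452), 110 entries were called, and no call among the 6 changed. Deviations of same-numbered libraries correlated at 0.21 over entries, but with 2 pairs and no label that ties them the libraries share only a number.

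Without mir-21a in the total, the 6 entries held 8.59% of the counts in OB, 16.8% in BM, 11.1% in Myo-EVs and 15.3% in FFSS-Myo-EVs. With 1 copy per type they held 3.70%, 5.14%, 4.84% and 6.67%. In the family, the let-7f share in FFSS-Myo-EVs exceeded that in Myo-EVs by 3.59 points with 1 copy per type and 4.57 to 5.97 points with each EV library left out, both chosen after the data were seen. The copy ratios over the EV libraries alone were 0.020 for let-7a and -0.058 for let-7f (p = 0.125, exact permutation test), and 0.026 to 0.027 and -0.069 to -0.067 with each EV library left out (p = 0.0625). These p-values are the smallest such designs allow. The number past 2-fold over OB in FFSS-Myo-EVs was 0 to 3 with each library left out and 0 with the 4 other scalings. The share of all entries past 2-fold was not taken with a library left out. With both libraries it was 35.4% upward on the authors' values, so the count of 3 is no result about these entries. Of the 18 similar profiles, 14 were found again over the 6 libraries. The cause of these shifts was not tested.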
